A study of Mus musculus with 6 samples.

Results

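Transcripts of 32 genes of peroxisome biogenesis and peroxisomal oxidation were measured in mouse liver after social isolation. The genes were 13 peroxins (Pex genes) and 19 oxidation enzymes and transporters. They were taken as every probe set whose platform annotation gives 1 gene symbol and whose symbol is one of the 32. This gave 59 probe sets, 27 for peroxins and 32 for enzymes and transporters, of 34945 single-symbol probe sets for 18193 genes in all. RNA came from livers of male BALB/c mice aged 10 weeks, on 1 Affymetrix array per sample. All mice entered at 4 weeks of age, were kept 5 to a cage and had 10 days to settle. The 3 control samples stayed without isolation per their titles, and the 3 isolated samples came from mice then housed singly for 30 days, with less bedding, their cages inside foam plastic boxes. Water and MF diet were free to all mice, under 12 h of light and 12 h of dark. No label says that each array is a separate animal, so p-values measure the spread between these samples, which may be partly technical. When the livers were taken, and how long after feeding, is not known from the labels.

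Peroxisomes are single-membrane organelles that shorten very long-chain, branched and dicarboxylic fatty acids and side chains of bile acid precursors. Acyl groups enter through ABC transporters, pass through a cycle of oxidation, hydration, dehydrogenation and thiolysis, and leave as carnitine esters for the mitochondria. The oxidases pass electrons to oxygen, which makes hydrogen peroxide, and catalase removes it. Peroxins build the organelle by inserting membrane proteins, importing folded matrix enzymes and dividing the membrane. In rodent liver the fatty acid sensor PPARalpha, bound to RXR, is a known activator of many of the oxidation genes and of Pex11a.

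In isolated livers, 1 enzyme and 1 peroxin had lower transcript levels. Ehhadh, the L-bifunctional protein that hydrates and dehydrogenates acyl-CoA in the oxidation cycle, fell 1.75-fold, and Pex11a, which elongates and divides peroxisomes, fell 1.84-fold. One probe set of Pecr, a reductase of trans-2-enoyl-CoA, rose 1.86-fold, while the brighter probe set that represents this gene did not pass. The other members of both classes were not called. Of the 55 member probe sets tested, 3 were lower, against 0.857% of all 22519 probe sets tested, and 1 was higher, against 0.773%, which makes 4 in either direction, against 1.63%. In bulk liver RNA, fewer cells of a type and less RNA per cell cannot be told apart. A call is a limma adjusted p under 0.05 (Benjamini-Hochberg over all tested probe sets), and fold changes are on the log2(signal + 2) scale. Tested probe sets are the upper 50% by mean level, which left out 4 dim member probe sets, of Abcd2, Abcd3, Acox3 and Crot.

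By the probe set with the highest mean for each gene, all 32 members were tested. Among the 19 enzymes and transporters 1 was called lower and 0 higher, and among the 13 peroxins 1 lower and 0 higher. Over all 10986 tested genes, 0.847% were called lower and 0.901% higher, 1.75% in all. At an unadjusted limma p under 0.05 stood 4 of the 19, 3 of the 13 and 12.3% of all genes. The median log2 difference, isolated minus control, was -0.06 over the enzymes and transporters and 0.01 over the peroxins, against 0.05 over all tested genes. Groups did not overlap for 5 of the 32 members, 4 lower, against 5.17% of all tested genes, and 1 higher, against 10.8% (16% in either direction). Of the 30 members without a call, 29 had a 95% interval that lay within a 2-fold change either way, and that of Hacl1 reached lower, to -1.06 on the log2 scale. The width of these intervals comes mostly from the trend of variance on signal level in the fit. They were not computed without that trend, so they do not bound each member by its own spread. Tissue identity was checked with 10 hepatocyte markers, whose summed signal was 148034 to 157592 in controls and 140837 to 152508 in isolated mice. Most of this sum comes from probe sets near the top of the signal range. One of Apoa1, at 14623.1, was the highest signal on control replicate 1. The sum could therefore miss a moderate change in hepatocyte share. All 10 were tested and 0 called by limma, with Tat and Fgb at an unadjusted p of 0.0274 and 0.0469.

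**Figure D1:**
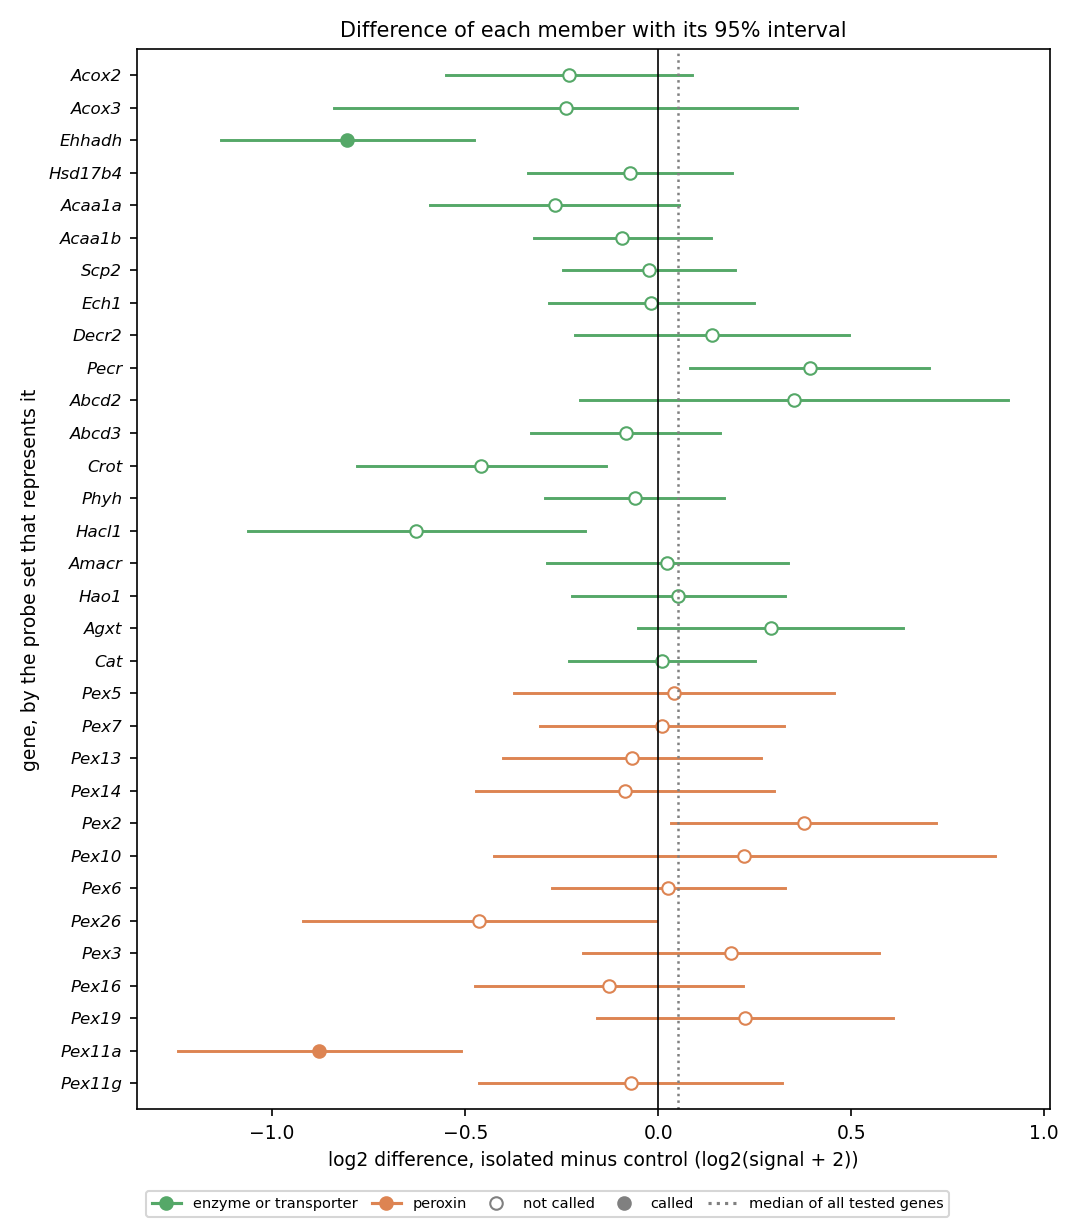
Log2 difference, isolated minus control, of each of the 32 members (horizontal axis, log2(signal + 2) scale) by the probe set that represents the gene (vertical axis), with the 95% interval from limma over 3 arrays per group. Filled points are called (Ehhadh at -0.81 and Pex11a at -0.88), open points are not, and the dotted line is the median of all tested genes at 0.05.

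To show the regions in front of the genes with a called probe set, the 250 bases before the start site are given 5′ to 3′ on the gene's strand, from RefSeq on build GRCm38.p6. The arrays name no build, and these coordinates are those of RefSeq. All 3 genes lie on the minus strand: Ehhadh at chr16:21787835-21788084, Pex11a at chr7:79743132-79743381 and Pecr at chr1:72284322-72284571. Capitals mark GGGTCA on either strand, a variant of the half-site of nuclear receptors.
Ehhadh: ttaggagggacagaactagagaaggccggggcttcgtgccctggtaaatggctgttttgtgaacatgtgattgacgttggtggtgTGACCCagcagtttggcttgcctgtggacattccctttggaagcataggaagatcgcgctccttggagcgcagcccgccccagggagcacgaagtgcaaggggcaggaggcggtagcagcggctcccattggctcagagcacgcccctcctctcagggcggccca
Pex11a: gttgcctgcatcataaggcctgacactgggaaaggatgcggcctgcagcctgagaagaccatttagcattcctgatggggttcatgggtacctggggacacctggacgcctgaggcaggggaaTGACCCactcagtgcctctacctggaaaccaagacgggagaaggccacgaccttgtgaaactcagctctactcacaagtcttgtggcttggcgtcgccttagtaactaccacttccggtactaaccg
Pecr: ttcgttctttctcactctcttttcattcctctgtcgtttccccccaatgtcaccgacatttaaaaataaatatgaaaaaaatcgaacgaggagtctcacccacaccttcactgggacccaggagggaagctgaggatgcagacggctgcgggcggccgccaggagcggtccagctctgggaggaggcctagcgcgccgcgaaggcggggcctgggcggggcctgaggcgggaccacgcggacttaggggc

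Motifs were searched on both strands in windows of 300 bases, from 250 before to 50 after the start. Windows on 1 chromosome, and any not of 300 bases, were left out of all counts. Of the windows kept, 27 members had at least 1, with 32 windows in all. PPARalpha with RXR binds a direct repeat of half-sites with 1 base between them. The exact repeat of AGGTCA with any 1 base between occurred in 0 member windows and in 0.0396% of all 32851 windows. The looser repeat of AGGNCA (N is any base), which includes the exact one, occurred in 0 member windows and in 0.381% of all. At such low shares 0 of 32 windows is the likely count for any genes. Sequence outside the windows was not searched, so these counts do not show whether a member has such a site. The single half-site AGGTCA occurred in the windows of Cat, Pex11g, Phyh and Scp2 and in 16.3% of all windows. GGGTCA, searched after the sequences had been read, occurred in the windows of Ehhadh (first base at -165), Pex11a (-127) and Pex11g (-19), and in 13.7% of all windows. Of these 3 genes Pex11g was not called. General promoter elements, also chosen later, were counted in the same way. TATAAA was found in 3 of the 32 member windows and in 13.6% of all windows, CCAAT in 12 and 37.4%, and GGGCGG in 20 and 35.7%. By gene these were 3, 11 and 19 of the 27 members.

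Within the acyl-CoA oxidation cycle, all 7 members had log2 differences below 0, with a median of -0.23, against 41.6% of all tested genes, and 1 was called. The intervals of the other 6 crossed 0. Ehhadh read 2249.8, 3152 and 3445 on control replicates 1, 2 and 3, against 1794, 1435 and 1775 on isolated replicates 1, 2 and 3. Each isolated array lay below each control array, and the control arrays spread more widely. The mean signal was 2949 ± 623 in controls and 1668 ± 202 in isolated mice (SD, n = 3 per group), a log2 difference of -0.81 ± 0.16 (SE; limma adjusted p 0.00756). The call ended without control replicate 3 (log2 -0.68, limma adjusted p 0.062), without the low-signal filter (0.0688) and without the intensity trend in the variances (0.223). With isolated replicates 2 and 3 left out, which assumes that the lone isolated array varies like the controls, the log2 difference was -0.69, with a limma adjusted p of 0.0791.

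Hsd17b4, the D-bifunctional protein that does the same 2 steps on branched and bile acid intermediates, read 3077 ± 339.5 and 2915 ± 141 (SD, n = 3 per group). Its log2 difference was -0.07, with a 95% interval of -0.34 to 0.19. This probe set is of a type (suffix _x_at) whose probes can match other transcripts. The other probe set of Hsd17b4, without that suffix, differed by -0.06. The log2 ratio of Ehhadh to Hsd17b4 within an array was -0.08 ± 0.26 in controls and -0.81 ± 0.16 in isolated mice (SD, n = 3 per group). The ratio was lower on each isolated array than on each control array, with an exact two-sided permutation p of 0.1, the smallest that 3 against 3 can give, and 0.1 after adjustment over the 2 ratios computed. The pairs for these ratios were chosen with the values known.

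Thiolases close the cycle. Acaa1a, a 3-ketoacyl-CoA thiolase described because its groups did not overlap, read 496.1, 517.6 and 471 on the control arrays against 397.4, 407.5 and 426.7 after isolation. The groups did not overlap, but the log2 difference was -0.27 ± 0.15 (SE; limma adjusted p 0.571). The other tested probe set of Acaa1a had a log2 difference of -0.01. Both are of a type (suffix _x_at) whose probes can match other transcripts, so signal from its close paralog Acaa1b cannot be told apart. Acaa1b itself read 8810 ± 800.0 and 8241 ± 254 (SD, n = 3 per group), a log2 difference of -0.09. Scp2, a sterol carrier made from the same gene as a thiolase for branched chains, had differences of -0.18 to 0.10 over 4 probe sets. The oxidases for branched chains and bile acid intermediates, Acox2 and Acox3, had log2 differences of -0.23 and -0.24. Acox2 had groups that did not overlap, by a narrow margin, as its lowest control read 1400.6 and its highest isolated array 1398. Neither oxidase passed, with limma adjusted p of 0.652 and 0.85.

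**Figure D2:**
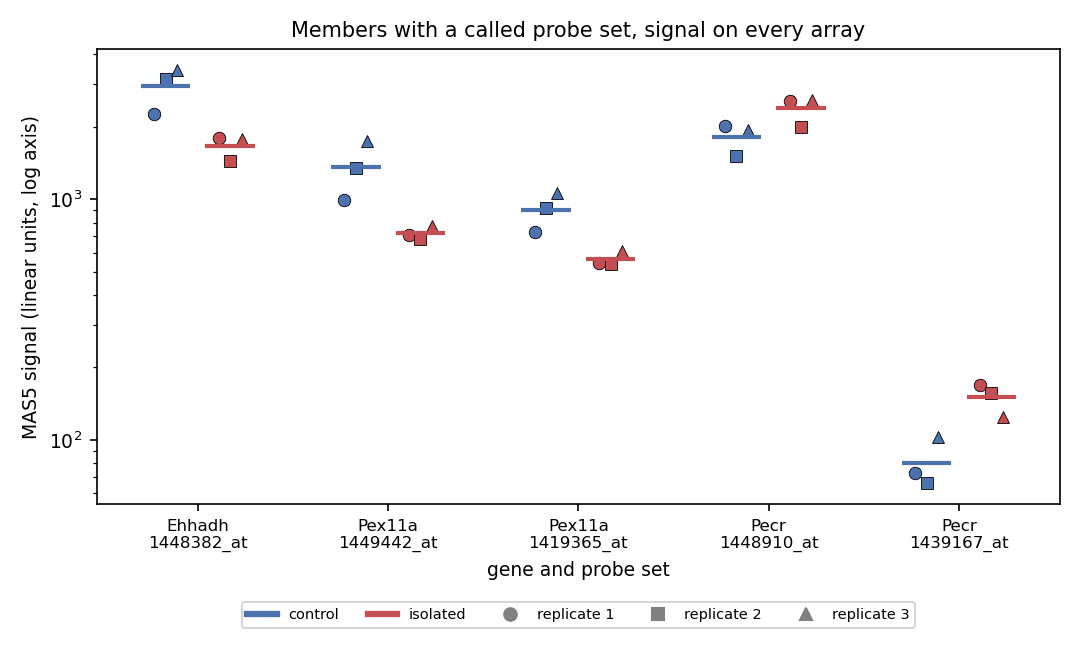
MAS5 signal (linear units on a log axis) of the 3 members with a called probe set, on every array: control in blue, isolated in red, marker shape for the replicate, bar for the group mean. Ehhadh and both probe sets of Pex11a are lower on all 3 isolated arrays than on any control, and the dimmer probe set of Pecr is higher on all 3.

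Auxiliary enzymes act on the double bonds of acyl-CoA, as isomerases that move them or reductases that remove them. The dimmer probe set of Pecr read 72.6, 65.9 and 102.6 on the control arrays against 169.1, 156.9 and 124.2 after isolation, with no overlap. The log2 difference was 0.90 ± 0.21 (SE; limma adjusted p 0.0317). This call ended when control replicate 1, control replicate 2, isolated replicate 1 or isolated replicate 2 was left out (limma adjusted p 0.102, 0.152, 0.101 and 0.085), with quantile normalization (0.0632), without a filter (0.0979), without the trend (0.199), and without isolated replicates 2 and 3 (0.0527). A fit with the replicate number as a block ended it as well (limma adjusted p 0.0521). The brighter probe set read 2024, 1506 and 1933 on the control arrays against 2568, 1999.6 and 2595 after isolation. There the groups overlapped, as isolated replicate 2 read below control replicate 1, and the log2 difference was 0.39 ± 0.15 (SE; limma adjusted p 0.264). Both probe sets thus had the same sign. Decr2, a 2,4-dienoyl-CoA reductase, and Ech1, a dienoyl-CoA isomerase, had log2 differences of 0.14 and -0.02, with limma adjusted p of 0.856 and 0.982.

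Transport and export showed no call. Crot, the carnitine octanoyltransferase that prepares shortened acyl groups for export, read 2431, 2698 and 2978 on the control arrays against 1693.5, 1739.7 and 2555 after isolation. Isolated replicates 1 and 2 were below every control, and isolated replicate 3 lay between control replicates 1 and 2. The log2 difference was -0.46 ± 0.15 (SE; limma adjusted p 0.183). Without isolated replicate 3 it was -0.65 and passed, with a limma adjusted p of 0.0326. Crot passed in 2 of the 16 alternatives run. Abcd3, an importer of branched and dicarboxylic acyl groups, read 4694 ± 172 and 4435 ± 338 (SD, n = 3 per group), a log2 difference of -0.08. Abcd2, an importer of very long-chain acyl-CoA that is abundant in fat and brain, had log2 differences of 0.35, 0.24 and -0.20 on its 3 tested probe sets. None of these passed, the smallest limma adjusted p being 0.711.

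Alpha-oxidation removes 1 carbon from phytanic acid and similar chains that carry a methyl branch. Hacl1, the lyase of this pathway, read 2061, 2426 and 2015 on the control arrays against 2304, 1038 and 1144 after isolation. Isolated replicate 1 lay within the control range, while isolated replicates 2 and 3 were far below it. The log2 difference was -0.63 ± 0.21 (SE; limma adjusted p 0.177). Without isolated replicate 1, the one within the control range, it was -0.99 and passed, with a limma adjusted p of 0.000503. With the upper 25% of probe sets tested it passed too (0.0403). Those were the only 2 of the 16 alternatives in which Hacl1 passed. It did not with a robust trend (0.573) or without the trend (0.514). Without isolated replicates 2 and 3 the log2 difference of Hacl1 was 0.09. Phyh, the phytanoyl-CoA hydroxylase, had a log2 difference of -0.06 and Amacr, the racemase that makes branched acyls fit for oxidation, one of 0.02. Both had 95% intervals within 0.34 of 0, the bounds being -0.29 and 0.17 for Phyh and -0.29 and 0.34 for Amacr.

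Some markers of fat tissue, and not others, were high on the 2 arrays on which Hacl1 was low. Adipoq, the adipocyte hormone adiponectin, read 4.38, 8.48 and 15.6 on the control arrays, against 3.78, 59.5 and 54.8 on isolated replicates 1, 2 and 3. Retn, another adipocyte hormone, read 2.39 to 3.88 on the control arrays against 2.65, 19.96 and 42.2 after isolation. Adipoq and Retn fell below the signal filter, so neither was tested, and no detection calls were at hand. The brightest probe set of Fabp4, a fatty acid carrier of adipocytes and macrophages, read 116.7, 202.0 and 157.5 on the control arrays and 202.6, 300.3 and 403.7 on the isolated ones. This probe set was thus just above the controls on isolated replicate 1 too (limma adjusted p 0.0578). Another one read 93.6, 142.2 and 136.4 on the control arrays against 80.0, 248.4 and 397.3 after isolation. There isolated replicate 1 was below every control (limma adjusted p 0.491). The remaining tested probe set of Fabp4 had a log2 difference of -0.02. Plin4, a lipid droplet coat protein, went the other way, at 56.0 to 89.7 in controls against 23.3, 38.5 and 21.8 after isolation, and was the 1 gene called (lower) of the 4 tested among 10 listed. Lipe and Cidea were not above the controls on both of these arrays, at 38.6 to 76.7 and 1.76 to 14.6 on the isolated arrays, against 61.7 to 66.2 and 3.58 to 18.3 in controls for their brightest probe sets. Of Car3, 2 dimmer probe sets were called higher on all 3 isolated arrays, at 1030.3, 1140 and 449 against at most 119 and at 935, 1561 and 622 against at most 122. Its brightest probe set had a log2 difference of -0.02. Without Car3, which liver also expresses strongly, the summed signal of the list was 382 to 573 on control arrays, against 409, 795 and 1008 on isolated replicates 1, 2 and 3. Lep, which encodes leptin, read at most 3.3 on any array. The part of fat tissue in the values of Hacl1 and the other members was not tested.

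**Figure D3:**
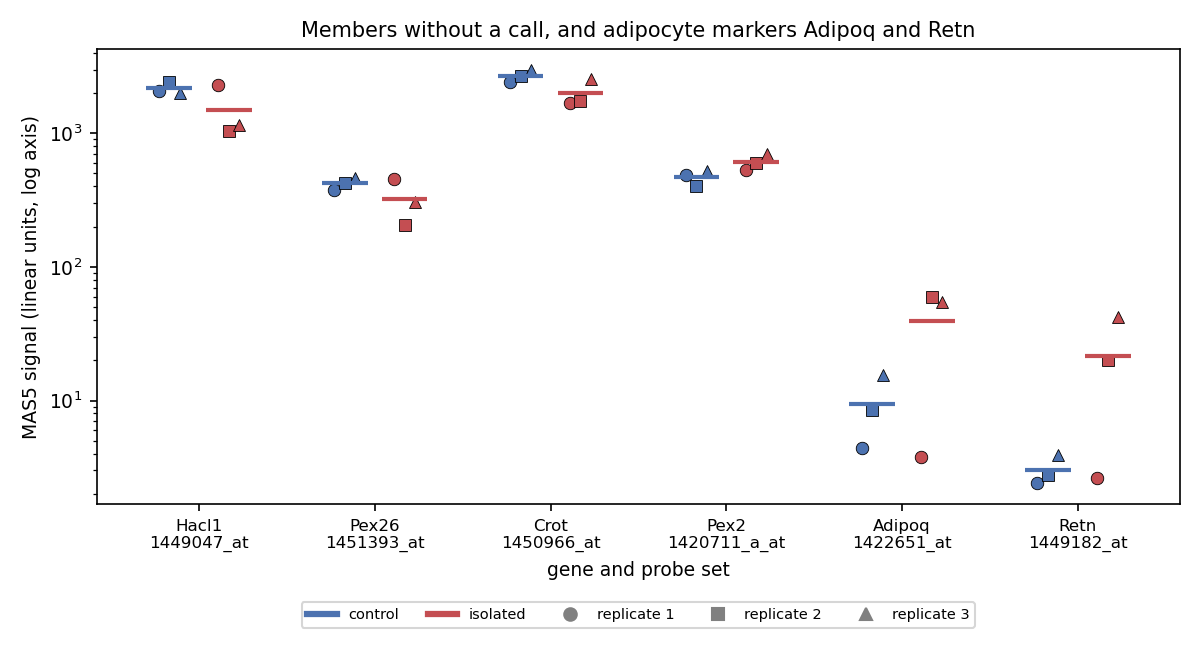
MAS5 signal (linear units on a log axis) of 4 members without a call (Hacl1, Pex26, Crot and Pex2) and of the adipocyte markers Adipoq and Retn, on every array: control in blue, isolated in red, marker shape for the replicate, bar for the group mean. Hacl1 and Pex26 are low on isolated replicates 2 and 3, the arrays on which Adipoq reads 59.5 and 54.8. Adipoq and Retn fell below the signal filter and were not tested.

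Glyoxylate and peroxide enzymes were not called. Agxt, the aminotransferase that clears glyoxylate, read 1346, 1129.7 and 1206.5 on the control arrays against 1555, 1153 and 1876 after isolation. The groups overlapped through isolated replicate 2, and the log2 difference was 0.29 ± 0.16 (SE; limma adjusted p 0.555). Hao1, the glycolate oxidase that produces glyoxylate and peroxide, differed by 0.05, with a 95% interval of -0.22 to 0.33. Cat, catalase, read 7292 ± 427 and 7360.3 ± 800.3 (SD, n = 3 per group), and its 2 probe sets differed by 0.01 and -0.03 on the log2 scale. The interval of the brighter one ran from -0.23 to 0.25.

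Among the peroxins, Pex11a was the 1 member called. Its brighter probe set read 993.7, 1351 and 1748 on the control arrays against 709.2, 684.9 and 776.4 after isolation. Its other probe set read 729.8, 918.5 and 1065 on the control arrays against 541.9, 535.5 and 610.9 after isolation. On both, all isolated arrays lay below all controls, and the controls spread far more than the isolated arrays. The mean of the brighter one was 1364 ± 377 in controls and 723.5 ± 47.4 in isolated mice (SD, n = 3 per group). Its log2 difference was -0.88 ± 0.18 (SE; limma adjusted p 0.0094), and that of the other was -0.67 ± 0.16 (SE), with 0.0393. The brighter call ended without control replicate 3 (log2 -0.68, limma adjusted p 0.0671) and without the trend (0.213), and it stood without isolated replicates 2 and 3, at -0.90 and 0.0216. The other call ended when control replicate 2, control replicate 3, isolated replicate 1 or isolated replicate 2 was left out (limma adjusted p 0.136, 0.166, 0.0964 and 0.0739), without a filter (0.0891), without the trend (0.267), and without isolated replicates 2 and 3 (0.12).

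Pex11g, the gamma form of the PEX11 protein, had log2 differences of 0.03, 0.13 and -0.07 on its 3 probe sets. The within-array log2 ratio of Pex11a to Pex11g was 2.66 ± 0.42 in controls and 1.85 ± 0.24 in isolated mice (SD, n = 3 per group). Every isolated array had a lower ratio than every control, with an exact two-sided permutation p of 0.1, again the smallest possible, and 0.1 after adjustment over the 2 ratios.

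Matrix import showed no call at any step. The receptors Pex5, which binds the C-terminal import signal, and Pex7, which binds the N-terminal one, had log2 differences of 0.04 and 0.01. Pex5 read 152.7, 108.4 and 126.8 on the control arrays against 138.9, 112.2 and 146.8 after isolation, so the groups overlapped throughout, and its other probe set differed by -0.11. The docking proteins Pex13 and Pex14 had differences of -0.07 and -0.09, and the dimmer probe set of Pex13 one of 0.21. Pex14 read 171.9, 156.5 and 163 on the control arrays against 175.7, 131.8 and 157.9 after isolation. Limma adjusted p was 0.858 or higher for every probe set of these 4 genes.

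Receptors leave the membrane again after ubiquitination by the RING peroxins. Pex2, one of these ligases, read 483.5, 406.4 and 517.8 on the control arrays against 533.9, 600.2 and 698.1 after isolation. All isolated arrays were above all controls, though isolated replicate 1 exceeded control replicate 3 by little. The log2 difference was 0.38 ± 0.16 (SE; limma adjusted p 0.37), and the dimmer probe set of Pex2 differed by -0.04. Pex10, another ligase of this complex, was dim, at 21.9 to 52.8 in controls and 35.9 to 59.5 after isolation, and had a 95% interval of -0.43 to 0.87. Pex26 anchors the ATPase Pex6, which pulls receptors out. Pex26 read 377.6, 421.3 and 466.5 on the control arrays against 451, 204.1 and 305.8 after isolation, with isolated replicates 2 and 3 below all controls and isolated replicate 1 among them. Its log2 difference was -0.46 ± 0.22 (SE; limma adjusted p 0.429), and it was 0.10 without isolated replicates 2 and 3. These are again the 2 arrays with the highest readings of Adipoq and Retn, which were too dim to be tested. The part of fat tissue in this was not tested. The 5 probe sets of Pex6 had log2 differences of -0.22 to 0.03. The brightest of them, which represents the gene, has the suffix _x_at, so its probes can match other transcripts.

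Membrane assembly genes overlapped between the groups. Pex19, the chaperone of peroxisomal membrane proteins, read 325.9, 275.8 and 367.5 on the control arrays against 324.1, 344.3 and 474.3 after isolation. Its 3 probe sets disagreed most among all members, with log2 differences of 0.23, 0.18 and -0.51, the last on a dim one. Pex3, the membrane dock for Pex19, had differences of 0.19 and 0.17, and Pex16 of -0.13 and -0.23. Limma adjusted p was 0.668 or higher for every probe set of these 3 genes. Over the 15 members with several tested probe sets, 6 had the same sign on all of them and 9 did not.

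The 2 classes were then set side by side array by array. As a median over the 13 peroxins, the deviation from the mean of all 6 arrays was 0.08, -0.08 and 0.08 on the log2 scale for the control arrays against 0.02, -0.22 and 0.17 for the isolated ones. Over the 19 enzymes and transporters it was -0.01, -0.05 and 0.09 for the control arrays against -0.04, -0.14 and 0.05 for the isolated ones. Over all tested genes it was -0.09, -0.08 and 0.11 for the control arrays against 0.03, -0.10 and 0.17 for the isolated ones. Isolated replicate 2 was lowest and isolated replicate 3 highest of the isolated arrays in all 3 sets, and the groups overlapped in each. In both classes the difference between group means was smaller than the spread between arrays. Differences under 0.3 in size, on the log2 scale, were found in 14 of the 19 enzymes and transporters, in 10 of the 13 peroxins and in 70.2% of all tested genes.

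**Figure D4:**
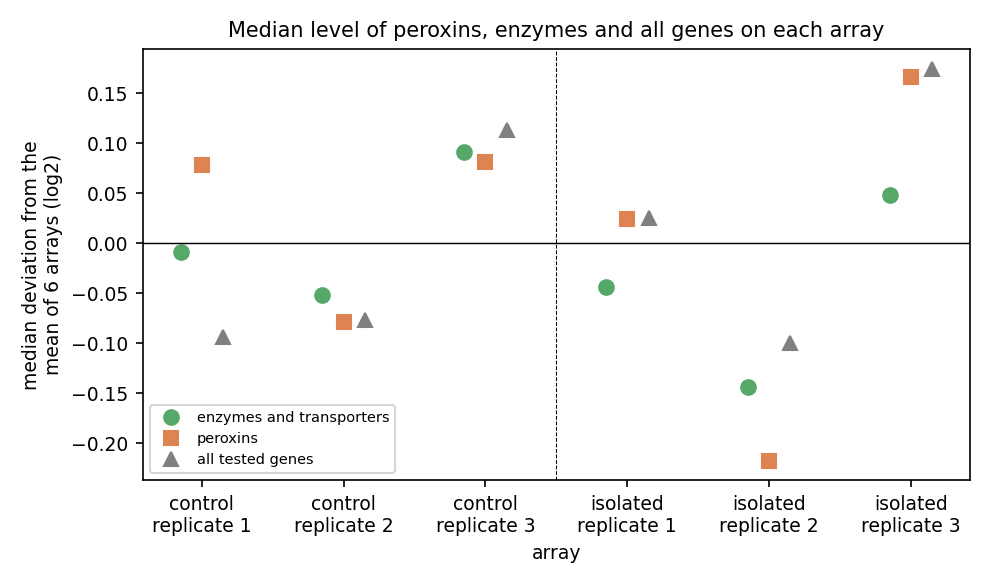
Median deviation of each array (horizontal axis) from the mean of the 6 arrays (vertical axis, log2), over the 19 enzymes and transporters, the 13 peroxins and all 10986 tested genes. Among the isolated arrays both classes, like all tested genes, are lowest on replicate 2, and control and isolated arrays overlap.

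Peroxisomal genes outside the 32 were described from a list of 45, of which 37 were matched to a probe set and 35 were tested. Of these 35, 1 was called lower and 0 higher, against 0.847% and 0.901% of all tested genes. At an unadjusted limma p under 0.05 stood 8, against 12.3% of all tested genes. The median log2 difference was 0.07, against 0.05 over all tested genes. Pxmp4, a peroxisomal membrane protein, read 516.4, 571.2 and 695 on the control arrays against 328.4, 278.7 and 323.7 after isolation. All isolated arrays lay below all controls, with a log2 difference of -0.93 ± 0.17 (SE; limma adjusted p 0.004). Its other probe set fell too, by 0.81 on the log2 scale (limma adjusted p 0.0184). That second call did not survive leaving out control replicate 2 (0.0843), control replicate 3 (0.0988) or isolated replicate 2 (0.0642). Without the intensity trend, or without isolated replicates 2 and 3, neither of them passed. Acot4, a thioesterase for dicarboxylic acyl-CoA, read 101.8, 107.2 and 149.3 on the control arrays against 70.4, 68.3 and 57.9 after isolation on its dimmer probe set. That one was called lower (log2 -0.83, limma adjusted p 0.0491), while the one that represents the gene was not (-0.59, 0.199). Leaving out any 1 array ended the call on the dimmer one, with limma adjusted p from 0.051 to 0.215. So did testing without a filter (0.14), median centring (0.0581), a fit without the trend (0.198), and leaving out isolated replicates 2 and 3 (0.393). Without isolated replicate 2, Nudt7, a hydrolase of coenzyme A, was the 1 listed gene called higher. Without isolated replicates 2 and 3, Eci2, an enoyl-CoA isomerase, was the 1 listed gene called, and Pxmp4 was not.

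Of 7 tested genes for PPARalpha and its partners, Ppara itself was the 1 called, against 1.75% of all tested genes. Ppara read 1411, 1396 and 1768 on the control arrays against 839, 749.2 and 1167 after isolation, all isolated arrays below all controls. The log2 difference was -0.75 ± 0.17 (SE; limma adjusted p 0.022). A second probe set read 1418, 1500.3 and 1826 on the control arrays against 746.5, 730.8 and 988.2 after isolation, again without overlap. It differed by -0.95 ± 0.16 (SE; limma adjusted p 0.00168), and the last by -0.47, with 0.246. The first call ended when control replicate 3, isolated replicate 1 or isolated replicate 2 was left out (limma adjusted p 0.124, 0.0558 and 0.0642) and without a filter (0.0931), and both were lost without the trend (0.264 and 0.15). The second was called with each array left out in turn. Rxra, its binding partner, read 488.3, 438.6 and 489.8 on the control arrays against 498.5, 378.2 and 539.3 after isolation, with a log2 difference of -0.01 and a 95% interval of -0.37 to 0.34.

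**Figure D5:**
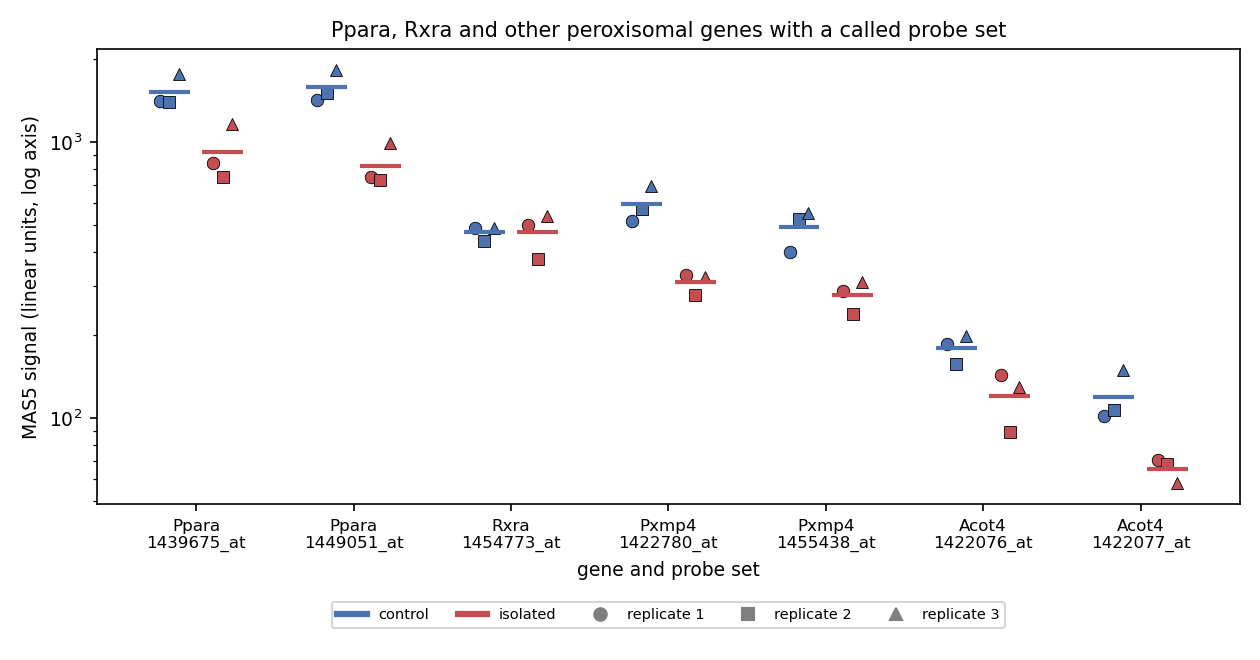
MAS5 signal (linear units on a log axis) of Ppara, Rxra, Pxmp4 and Acot4 on every array, 1 position per probe set: control in blue, isolated in red, marker shape for the replicate, bar for the group mean. Both Ppara and both Pxmp4 probe sets shown are lower on all 3 isolated arrays than on any control, and the Rxra groups overlap.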

How the data were processed

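Liver RNA was measured on 6 Affymetrix mouse arrays, 3 control and 3 isolated, grouped by their titles. Per the labels' protocols, TRIzol and RNeasy RNA was labelled with biotin from 2 µg. The deposited values are MAS5 intensity signals on a linear scale, per the submitters' processing notes. The scaling target, the MAS5 version and detection calls are not stated in those notes. From them, log2(signal + 2) was taken on 45037 probe sets (64 control probe sets left out), with no further scaling. The upper 50% by mean, 22519, were fitted with limma 3.58.1 in R 4.3.3 (eBayes with an intensity trend, 16.1 prior and 4 residual degrees of freedom, two-sided). The trend thus sets most of each SE. Gene names came from the platform annotation, and all 59 member probe sets matched RefSeq with 0 symbols changed. The members, lists and tests were chosen with earlier results of these data known. Signals on every array were given for members with a called probe set and, in each other role group, for the one with the largest difference. Exact permutation tests were used for within-array ratios. Median array signals were 18.4 to 22.1, and the log2 values of arrays correlated at 0.955 to 0.974 across probe sets, whose rows are not independent. The fit was tested on simulated data whose noise followed a trend on mean level, so that test does not bear on the choice of the trend. Precision is limited by having 3 arrays in a group. Figures used matplotlib 3.10.9.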

Additional observations from a re-analysis of the deposited data

How the results depend on the processing

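Ehhadh, Pex11a and Pxmp4, by the probe sets that represent them, kept a log2 difference below 0 under all 16 alternatives run for each, at -0.99 to -0.68, -1.09 to -0.68 and -1.02 to -0.81, and passed in 12, 14 and 14. The choice that changed most was the variance model: without the intensity trend 0 member probe sets were lower and 0 higher, 0 enzymes and transporters, 0 peroxins and 0 other peroxisomal genes were lower by limma, and 2 member genes had an unadjusted p under 0.05. Over all genes, 14 were called in that fit, against 192 in the main fit. With no filter, 1 member probe set was lower and 0 higher, and 0 enzymes were lower, with 104 genes called in all. With the upper 25% tested, 2 enzymes (Ehhadh and Hacl1) were lower, with 294 genes called in all. The number of genes tested differed with the filter. With quantile normalization 0 member probe sets were higher, with 211 genes called in all. With the replicate block, 2 enzymes (Ehhadh and Crot) were lower and 1 (Pecr, by its brighter probe set, limma adjusted p 0.0462) higher, while the calls on the dimmer Pecr probe set (0.0521) and on the dimmer Acot4 probe set (0.0622) ended. That fit called 291 genes in all. The replicate numbers were not taken to pair the samples in the main fit. The deviations of same-numbered arrays were close to uncorrelated, at 0.0049 to 0.0436. Control replicates 2 and 3 correlated best with the isolated array of their own number, though only at 0.0436 and 0.0049. Control replicate 1 did not. These values do not settle whether the numbers pair the samples. With isolated replicates 2 and 3 left out together, chosen with the data known, which leaves a lone isolated array whose spread is taken from the controls, 1 member probe set was lower and 0 higher, 0 enzymes were lower, and the log2 difference of Hacl1 turned to 0.093. With 1 array left out in turn, 0 to 4 member probe sets were lower and 0 to 1 higher. In these fits 0 to 2 enzymes and 0 to 1 peroxins were lower, and 0 to 1 other peroxisomal genes were higher. They called 127 to 222 genes in all. The enzyme and peroxin medians moved by less than the spread between arrays under each alternative run. Changing the trend or adding the replicate block cannot move these medians, so those fits say nothing on this point. Signs did change: the enzyme median was 0.0155 without control replicate 3, and the peroxin median was -0.117 without control replicate 2. Except where a value shows fewer genes or arrays, the cause was not tested. Dim probe sets, with no detection calls at hand, limit Acox3, Pex10 and Abcd2 most.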
